A study of Homo sapiens with 12 samples.

Results

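The HOX genes encode homeodomain transcription factors that give cells their place along the head-to-tail axis. They lie in clusters, HOXA to HOXD, in which the gene number follows the position of expression in the embryo, from the hindbrain (low numbers) to the trunk, the tail end and the distal limb (high numbers). Their on and off states are held by the opposed Trithorax and Polycomb groups of chromatin regulators, and Brahma, the fly relative of BRG1, is itself a Trithorax group protein. HOX proteins bind DNA together with cofactors of the TALE homeodomain family, such as PBX and MEIS.

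Every gene that the array annotation names HOXA, HOXB, HOXC or HOXD followed by a number was taken, whatever its value. This gave 29 of 18665 named genes, read by 35 of 48803 probes: 1 HOXA gene (HOXA2), 10 HOXB, 9 HOXC and 9 HOXD genes. The current gene table holds 39 HOX genes, and the 10 other HOXA genes, which the annotation used here does not name, were not analysed here. mRNA was measured on 1-colour Illumina Human-WG6 BeadChips in SW-13, an established adrenal carcinoma cell line that lacks BRG1 (SMARCA4), the ATPase of the SWI/SNF chromatin remodelling complex. Cells carried an adenovirus for GFP (Ad-GFP) or for a GFP-BRG1 fusion protein (Ad-BRG1), each with no further treatment or after 6 h of IFNγ, which makes 4 groups of 3 arrays. All groups share the line and an adenovirus, no group is free of virus, and by the study's methods the BRG1 virus was dosed to the BRG1 level of HeLa cells and the replicates are biological, so that p-values measure the spread between these cultures. The groups come from the sample titles.

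Per array, 15741 to 16828 probes were above background, and mean raw intensity was 540 to 571 in Ad-BRG1 cells with IFNγ against 571 to 666 in the other groups. Across genes, normalized arrays correlated at r 0.994 to 0.998 within groups and at 0.947 to 0.993 between groups. IRF1, a factor gene induced early by IFNγ, had a mean log2 intensity of 7.95 and 8.52 in untreated Ad-GFP and Ad-BRG1 cells and of 13.16 and 13.76 with IFNγ. The SMARCA4 probe read 8.51 to 8.70 in all groups, and since its place relative to the viral cDNA is not known here, it does not check the virus labels. Of 9 adrenal cortex markers, 1 (CYP11A1) was above background (in Ad-BRG1 cells with IFNγ), so most defining markers of the labelled origin were not detected. Of 6 leukocyte markers 1 was above background in some group, of 5 endothelial markers 2, of 7 fibroblast markers 5 and of 5 epithelial markers 1. Of 5 fibroblast genes tested, COL1A1 (at least 8.96-fold) and PDGFRB (at least 2.46-fold) were higher with BRG1 without IFNγ. The others did not pass the test (limma adjusted p under 0.05). The epithelial keratin KRT18 (6.02-fold), TEK of the endothelial list (log2 difference 0.96) and CD68 of the leukocyte list (0.81) were higher too. With IFNγ 2 of the 5 fibroblast genes were higher with BRG1 and 1 lower. The part of these genes in the HOX values was not tested. All arrays are of 1 cell line, and bulk RNA does not tell a change in every cell from a change in some of its cells.

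The first question was which HOX clusters these cells transcribe. A gene counted as above background in a group when a probe of it had a detection p under 0.05 on all 3 arrays, the detection p being the deposited rank of a probe against negative control beads. Genes of all 4 clusters passed. In every group 20 of the 29 genes were above background: HOXA2, 7 HOXB, 7 HOXC and 5 HOXD genes. Of these, 19 were above background on all 12 arrays, 1 HOXA, 6 HOXB, 7 HOXC and 5 HOXD genes. The seventh HOXB gene was not the same in each group. HOXB13, a factor best known from the prostate, was detected on 3 arrays of untreated Ad-GFP cells, 1 of untreated Ad-BRG1 cells, 2 of Ad-GFP cells with IFNγ and 1 of Ad-BRG1 cells with IFNγ. HOXB6 was detected on 2 of 3 untreated Ad-GFP arrays and on all 9 others. With a detection p under 0.01, between 14 and 16 genes were above background in a group.

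**Figure D1:**
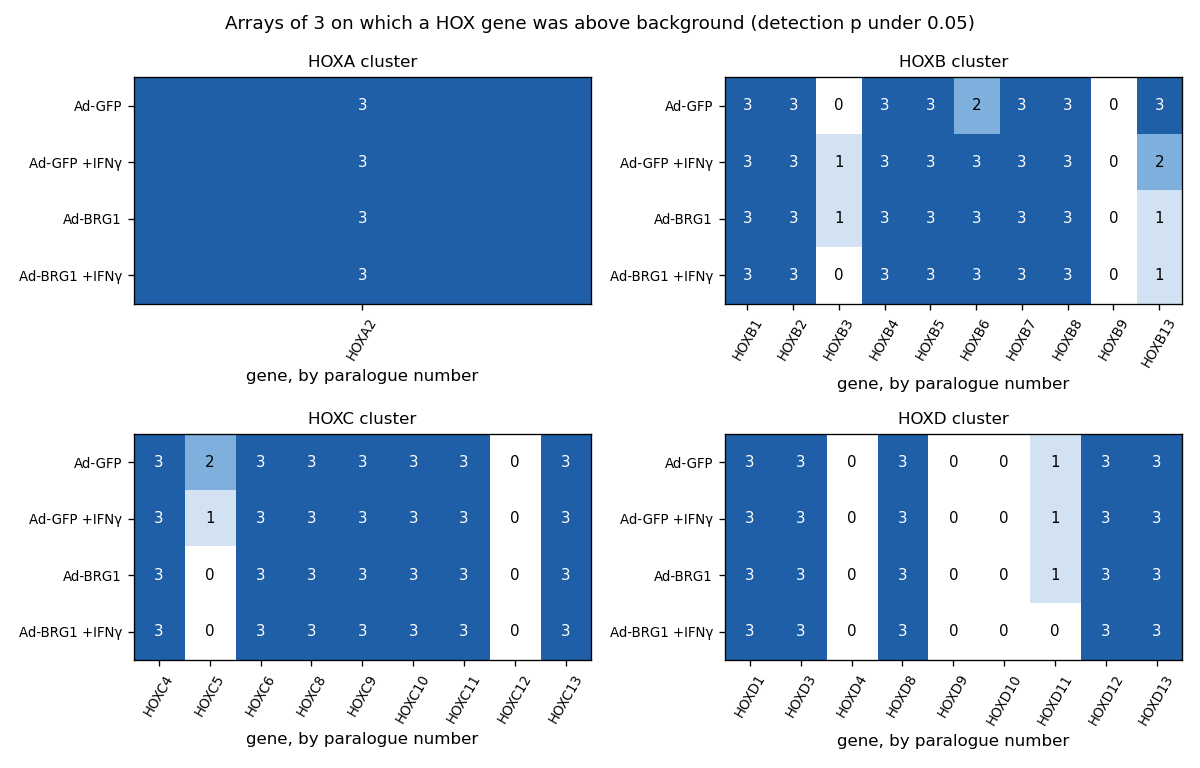
Number of arrays, of 3, on which each of the 29 HOX genes was above background (detection p under 0.05), with genes in columns by number, groups in rows and 1 panel per cluster. Most columns are dark in all 4 groups, and HOXB3, HOXB9, HOXC5, HOXC12, HOXD4, HOXD9, HOXD10 and HOXD11 reach 3 in none.

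In all, 21 HOX genes (72.4%) had a probe detected on all 3 arrays of at least 1 group and could be tested, against 55.4% of all named genes (10333 tested). The other 8 were HOXB3 and HOXB9, HOXC5 and HOXC12, and HOXD4, HOXD9, HOXD10 and HOXD11. HOXB9, HOXC12, HOXD4, HOXD9 and HOXD10 were detected on 0 of 12 arrays, with lowest detection p of 0.0856, 0.0843, 0.0567, 0.202 and 0.13. HOXC5 was detected on 2 arrays of untreated Ad-GFP cells and 1 of Ad-GFP cells with IFNγ, and on 0 Ad-BRG1 arrays (lowest detection p 0.0408). HOXD11 was detected on 1 array in each group but the Ad-BRG1 cells with IFNγ, where it was on 0 (lowest 0.0329). HOXB3 was detected on 2 of 12 arrays (lowest 0.0277). Within HOXD, the tested genes were thus HOXD1, HOXD3 and HOXD8 on one side and HOXD12 and HOXD13 on the other, with HOXD4 inside the first stretch and HOXD9, HOXD10 and HOXD11 between the sides not above background on all arrays of any group. A probe that is not detected says that its signal was not above the control beads, not that the gene was silent.

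The promoter windows of HOXD1, HOXD8 and HOXD12, the genes called for BRG1 both without and with IFNγ that have a window in the table used, are shown because HOX promoters are rich in CG dinucleotides, the sequence on which DNA methylation acts. They are RefSeq sequences on GRCh38.p14, 300 bases each, from 250 bases before the transcript start to 50 after it, on the plus strand, with every CG in capitals. HOXD1 (chr2:176188418-176188717) and HOXD8 (chr2:176129455-176129754) were lower with BRG1, and HOXD12 (chr2:176099545-176099844) was higher.
HOXD1: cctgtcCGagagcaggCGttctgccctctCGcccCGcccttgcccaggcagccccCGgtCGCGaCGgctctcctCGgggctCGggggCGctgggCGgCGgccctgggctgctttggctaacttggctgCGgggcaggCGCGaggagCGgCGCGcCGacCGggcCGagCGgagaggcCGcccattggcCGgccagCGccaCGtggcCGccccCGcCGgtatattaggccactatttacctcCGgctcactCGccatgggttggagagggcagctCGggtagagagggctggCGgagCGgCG
HOXD8: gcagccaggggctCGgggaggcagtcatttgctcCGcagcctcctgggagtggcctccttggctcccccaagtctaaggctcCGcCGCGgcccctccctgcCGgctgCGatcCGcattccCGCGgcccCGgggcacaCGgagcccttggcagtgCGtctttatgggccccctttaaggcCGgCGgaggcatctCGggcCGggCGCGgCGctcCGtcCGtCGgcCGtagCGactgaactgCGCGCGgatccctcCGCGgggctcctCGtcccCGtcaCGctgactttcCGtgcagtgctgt
HOXD12: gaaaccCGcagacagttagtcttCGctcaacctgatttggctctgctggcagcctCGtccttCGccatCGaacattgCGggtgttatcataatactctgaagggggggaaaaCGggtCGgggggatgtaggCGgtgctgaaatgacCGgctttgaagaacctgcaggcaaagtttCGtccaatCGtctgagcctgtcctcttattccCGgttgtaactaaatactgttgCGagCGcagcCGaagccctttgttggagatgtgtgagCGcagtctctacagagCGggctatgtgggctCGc
These windows hold 36, 34 and 19 CG dinucleotides, and 74.3%, 71.7% and 54.3% G or C. RefSeq windows were found for 12 of the 29 HOX genes, HOXC4 and HOXC5 sharing 1, so that 11 differ. Over these 11 the median was 23 CG dinucleotides (4 in HOXD4 to 36 in HOXD1), against a median of 14 over all 34943 windows, while the median share of G and C, 58%, was close to the 58.7% of all windows. Of motifs searched on both strands, TGATNNAT, a HOX-PBX motif, was in 3 of the 11 windows (HOXA2, HOXB1 and HOXD11, 7.42% of all) and TATAAA in 1 (HOXD13, 11.6% of all). A match is a description of letters, not a site.

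The next comparison asked what BRG1 does to HOX mRNA in untreated cells. Of the 21 HOX genes tested, limma called 9 (42.9%) at an adjusted p under 0.05, against 57.1 percent of all genes (26.7 percent higher, 30.3 percent lower): HOXB2, HOXC6, HOXC13 and HOXD12 were higher in Ad-BRG1 cells, and HOXB5, HOXB13, HOXC9, HOXD1 and HOXD8 lower. HOXB13 had passed the detection filter only through untreated Ad-GFP cells, where it was high, so its fall was favoured by the filter. Without it 8 of 20 HOX genes (40%) were called, 4 higher and 4 lower, while the shares of all genes keep genes that passed in this way. Both directions were found in HOXB, HOXC and HOXD. In HOXC 2 were up and 1 down of 7, and in HOXD 1 was up and 2 down of 5. In HOXB 1 was up and 2 down of 8, HOXB5 and HOXB13, which leaves HOXB5 as the fall there without HOXB13. The changes were small. None of the 21 reached 2-fold, where 7.05 percent of all genes did, and 2 (HOXB2 and HOXD8) reached 1.5-fold, 9.52% against 21.3 percent. The median size of the log2 difference was 0.21 over the HOX genes and 0.29 over all genes.

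HOXB2, a hindbrain patterning gene, differed most. Its log2 intensity was 7.10, 7.22 and 7.23 on the untreated Ad-GFP arrays and 7.89, 8.02 and 7.92 on the untreated Ad-BRG1 arrays. The lowest Ad-BRG1 array was above the highest Ad-GFP array, and the difference of 0.76 (SE 0.07, 1.69-fold, limma adjusted p = 1.37e-06) was well outside the spread within groups. HOXD8 went the other way, from 7.13, 7.11 and 7.08 in Ad-GFP to 6.59, 6.41 and 6.41 in Ad-BRG1 cells, again without overlap (-0.64, SE 0.13, 1.56-fold lower, limma adjusted p = 0.00134). HOXD1, which acts in sensory neurons of the mouse, read 10.68, 10.75 and 10.72 in Ad-GFP and 10.22, 10.22 and 10.19 in Ad-BRG1 cells. The arrays of each group lay close together (SD 0.04 and 0.02), and HOXD1 was 1.42-fold lower with BRG1 (-0.51, SE 0.06, limma adjusted p = 9.6e-06).

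HOXB13 read 5.67, 5.71 and 5.70 in Ad-GFP and 5.40, 5.28 and 5.24 in Ad-BRG1 cells. The Ad-BRG1 arrays were lower, and 2 of the 3 were not above background, so no size or test of the difference is given. HOXC13, which drives keratin genes of hair and nail, was higher with BRG1, at 8.13, 8.42 and 8.31 against 8.78, 8.66 and 8.53, a difference of 0.37 (SE 0.10, limma adjusted p = 0.00676) without overlap. HOXB5, a gene of vascular and gut development, fell by 0.31 (SE 0.09, limma adjusted p = 0.01). Its arrays were 8.48, 8.35 and 8.41 in Ad-GFP and 7.88, 8.18 and 8.26 in Ad-BRG1 cells, replicate 1 of the latter being the lowest. HOXD12, a distal limb gene, rose by 0.30 (SE 0.09, limma adjusted p = 0.0151), from 7.45, 7.31 and 7.27 to 7.56, 7.78 and 7.59. The HOXD12 groups did not overlap, but without untreated Ad-GFP replicate 3 or untreated Ad-BRG1 replicate 2 the difference was 0.24 to 0.26 and no longer called (adjusted p 0.0568 to 0.0682).

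HOXC6, a central HOX gene with raised levels in several carcinomas, was 0.21 higher (SE 0.05, limma adjusted p = 0.00563), at 12.59, 12.63 and 12.67 in Ad-GFP and 12.82, 12.86 and 12.83 in Ad-BRG1 cells. With each array scaled to a common median the HOXC6 difference was 0.15 and not called (adjusted p = 0.112). HOXC9, which specifies thoracic motor neurons in the mouse, fell least, by 0.18 (SE 0.07, limma adjusted p = 0.0416). Its groups overlapped, with 9.20, 8.96 and 9.10 against 8.84, 8.88 and 8.98, and leaving out any 1 of 7 arrays lost the call (adjusted p 0.0515 to 0.17). These were replicates 1 and 3 of untreated Ad-GFP, 1 and 2 of untreated Ad-BRG1, 1 and 2 of IFNγ-treated Ad-GFP and 2 of IFNγ-treated Ad-BRG1 cells. The other 12 tested genes were not called, with log2 differences between -0.31 (HOXC4) and 0.30 (HOXB6). HOXC4 missed the threshold (adjusted p = 0.0543, 95% interval -0.59 to -0.03), as did HOXB8 (0.29, adjusted p = 0.0848), whose groups did not overlap. In all, the groups did not overlap for 11 HOX genes (52.4%), or 10 of 20 (50%) without HOXB13, against 62.8 percent of all genes. That last share keeps genes that passed the detection filter through 1 group only.

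**Figure D2:**
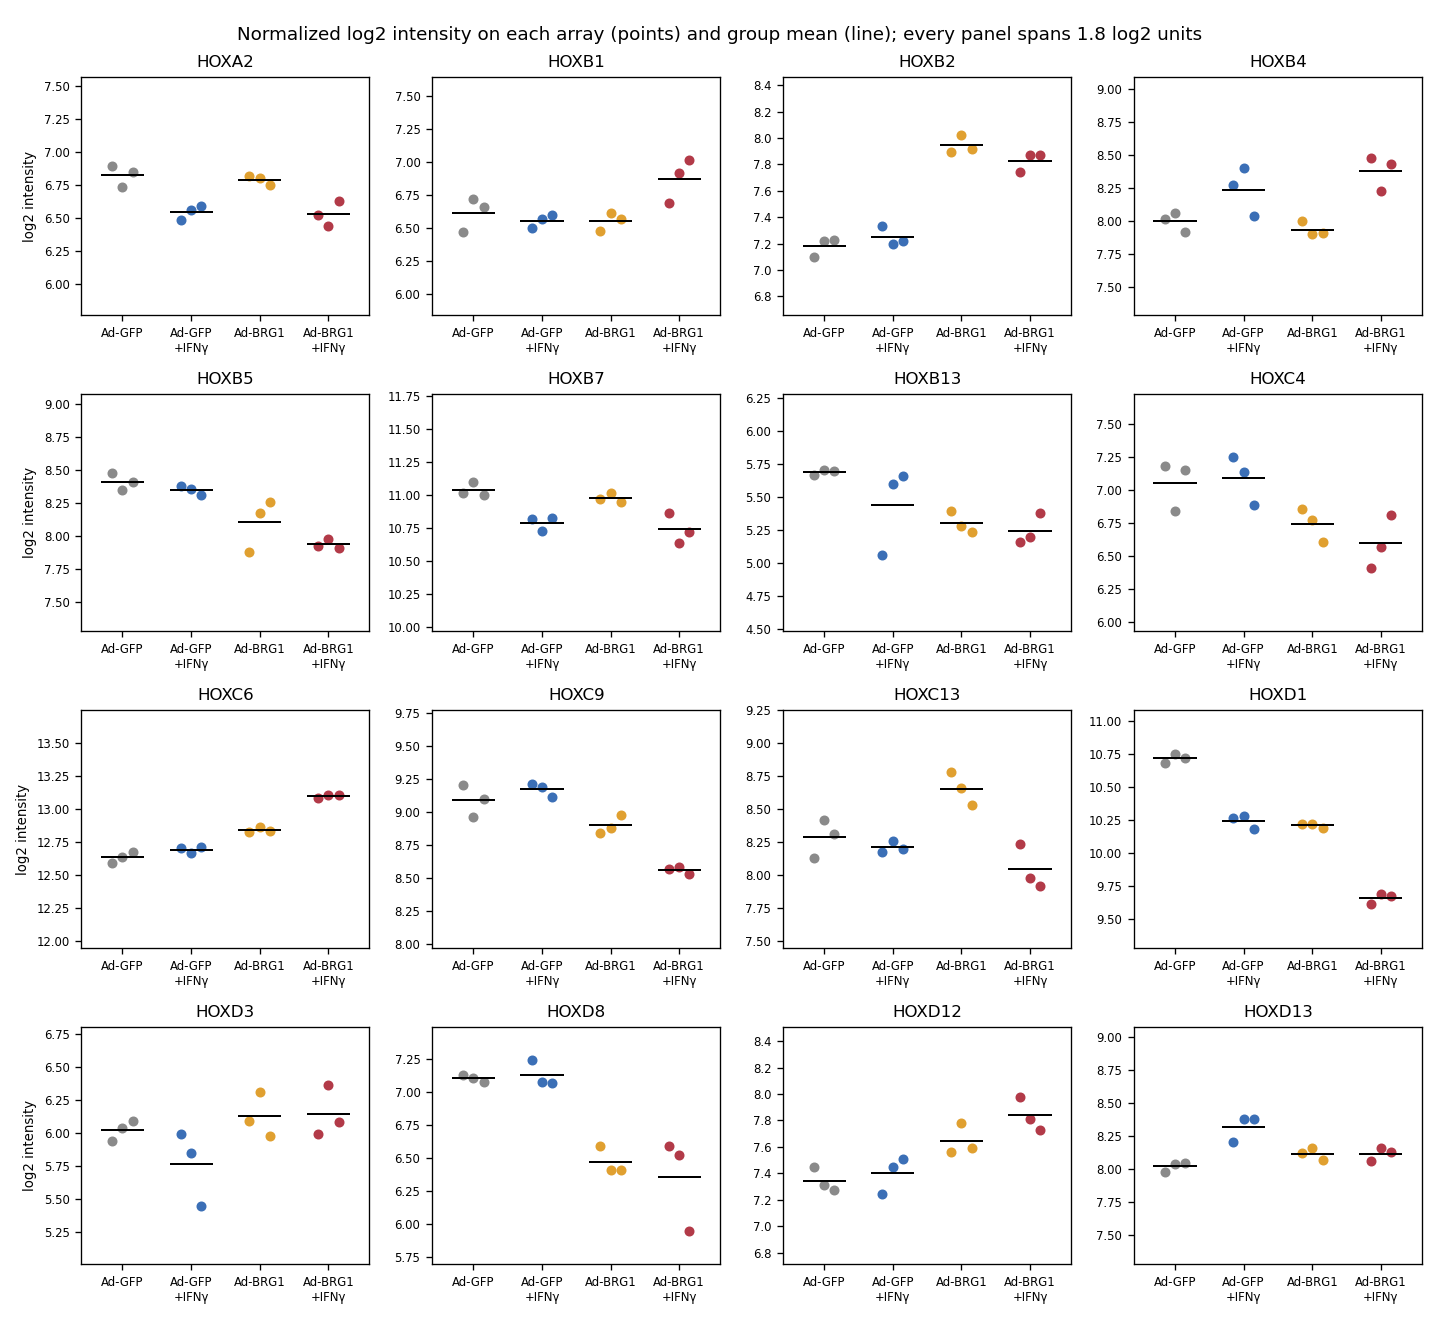
Normalized log2 intensity of the 16 HOX genes called in at least 1 comparison, with 1 point per array and the group mean as a line, in 4 groups of 3 arrays; every panel spans the same number of log2 units around its own centre. HOXB2 is high and HOXD8 low on all Ad-BRG1 arrays, and HOXD1 steps down from 10.72 in untreated Ad-GFP cells to 9.66 in Ad-BRG1 cells with IFNγ.

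The same comparison was made in cells given IFNγ, with group means from arrays other than those of the untreated comparison. The fit pools the spread within all groups, so the calls of the comparisons are not independent. Limma called 11 of 21 HOX genes (52.4%), against 61.1 percent of all genes, 5 of them higher (28.3 percent of all genes) and 6 lower (32.8 percent). HOXB1, HOXB2, HOXC6, HOXD3 and HOXD12 were higher in Ad-BRG1 cells, and HOXB5, HOXC4, HOXC9, HOXD1, HOXD8 and HOXD13 lower. All 5 HOXD genes tested were called here, 2 up and 3 down. Genes 2-fold changed numbered 0 of 21 (8.41 percent of all genes) and 1.5-fold changed 2, HOXC9 and HOXD8 (24 percent of all genes). The median size of the log2 difference was 0.32 for the HOX genes and for all genes.

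Of the 9 HOX genes called without IFNγ, 7 (77.8%) were called in the same direction with IFNγ, 63.6% of the 11: HOXB2, HOXC6 and HOXD12 were higher and HOXB5, HOXC9, HOXD1 and HOXD8 lower in both, and 0 were called in opposite directions. The 9 include HOXB13, whose call the detection filter favoured, and 7 of the 8 calls left without it were shared. Over all genes, 76.7% of the calls without and 71.7% of those with IFNγ were common and of 1 direction. Of all 21 HOX genes, 17 (81%) had the same sign, as had 79.5% of all genes. HOXD8 had the largest difference, -0.77 (SE 0.13, limma adjusted p = 0.000304), from 7.24, 7.08 and 7.07 in Ad-GFP to 6.59, 6.52 and 5.95 in Ad-BRG1 cells, replicate 3 of the latter being the lowest. HOXC9 stood at 9.21, 9.19 and 9.11 in Ad-GFP and 8.57, 8.58 and 8.53 in Ad-BRG1 cells, a fall of 0.61 (SE 0.07, limma adjusted p = 1.17e-05) with groups far apart. HOXD1 was 1.5-fold lower, at 10.26, 10.28 and 10.18 against 9.61, 9.69 and 9.67 (-0.58, SE 0.06, limma adjusted p = 2.37e-06). HOXB2 was 1.49-fold higher, at 7.33, 7.20 and 7.22 against 7.74, 7.87 and 7.87 (0.58, SE 0.07, limma adjusted p = 1.27e-05). None of these 4 pairs of groups overlapped.

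HOXC4 read 7.25, 7.14 and 6.89 in Ad-GFP and 6.41, 6.57 and 6.81 in Ad-BRG1 cells, 1.41-fold lower (-0.50, SE 0.13, limma adjusted p = 0.00476). HOXD12 was 0.44 higher (SE 0.09, limma adjusted p = 0.00133), with 7.24, 7.45 and 7.51 against 7.98, 7.81 and 7.73. HOXB5 was 0.41 lower in log2 terms (SE 0.09, limma adjusted p = 0.00152), with 8.38, 8.36 and 8.31 against 7.93, 7.98 and 7.91. All arrays of 1 virus lay on 1 side for these genes, and neither an array nor another processing setting removed the 3 calls. HOXC6 differed by 0.41 (SE 0.05, limma adjusted p = 3.28e-05), with 12.70, 12.66 and 12.71 against 13.08, 13.10 and 13.10. HOXB1, which patterns the hindbrain and the facial nerve, differed by 0.32 (SE 0.09, limma adjusted p = 0.00923), with 6.50, 6.57 and 6.60 against 6.69, 6.92 and 7.02. Scaling each array to a common median removed the calls of HOXC6 (0.14, adjusted p = 0.139) and HOXB1 (0.18, adjusted p = 0.13).

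HOXD3 was 0.38 higher (SE 0.14, limma adjusted p = 0.027), at 5.99, 5.85 and 5.45 in Ad-GFP and 5.99, 6.36 and 6.08 in Ad-BRG1 cells, where the highest Ad-GFP and the lowest Ad-BRG1 array were all but equal. Without IFNγ-treated Ad-GFP replicate 3 or Ad-BRG1 replicate 2 the HOXD3 difference was 0.23 to 0.28 and not called (adjusted p 0.12 to 0.129). HOXD13, whose mutations cause fused extra digits, was 0.20 lower on the log2 scale (-0.20, SE 0.07, limma adjusted p = 0.0182), at 8.21, 8.38 and 8.38 against 8.06, 8.16 and 8.13. That call was lost without IFNγ-treated Ad-GFP replicate 2 or 3 or Ad-BRG1 replicate 1 (adjusted p 0.0612 to 0.0697) and with the authors' average normalization (-0.09, adjusted p = 0.154). The groups did not overlap for 12 HOX genes (57.1%), against 65.3 percent of all genes. The other 10 genes had log2 differences from -0.20 (HOXB13) to 0.32 (HOXB6) and were not called, HOXC13 among them (-0.16, 95% interval -0.38 to 0.06).

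Directions in cells with IFNγ depend on the scale. With each array scaled to a common median instead of quantile normalization, the median of all genes moved to -0.21 in Ad-BRG1 against Ad-GFP cells with IFNγ and 27.1% of all calls were higher, against 46.3% here. The HOX calls were then 2 up and 8 down in place of 5 up and 6 down. Relative to that shift of all genes, HOXB2 was 0.60 and HOXC6 0.35 higher, and HOXD8 (-0.68), HOXD1 (-0.62) and HOXC9 (-0.59) were lower. Relative to the median of all genes, 0 called HOX genes took the other sign in any comparison.

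**Figure D3:**
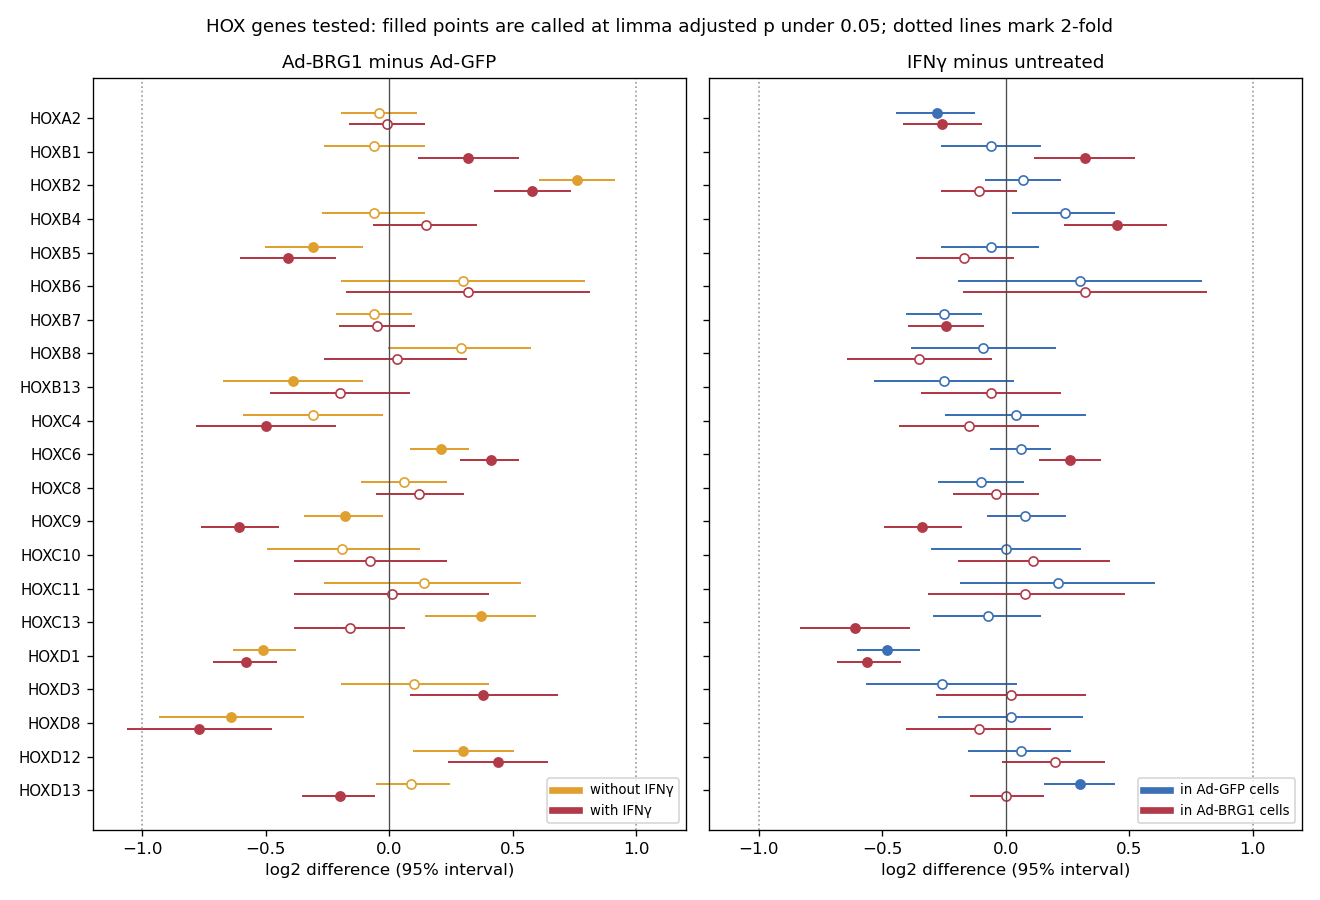
Log2 difference with its 95% interval for each of the 21 HOX genes tested, as Ad-BRG1 minus Ad-GFP cells without and with IFNγ (left) and as IFNγ minus untreated in Ad-GFP and in Ad-BRG1 cells (right); filled points were called by limma. HOXB2 stands farthest to the right and HOXD8 farthest to the left in the panel for BRG1, and no point lies beyond the dotted lines at 2-fold.

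The third comparison asked how HOX genes move with IFNγ in cells without BRG1. Limma called 3 of 21 (14.3%), against 4.07 percent of all genes, HOXA2 and HOXD1 being lower (0.977 percent of all genes) and HOXD13 higher (3.1 percent). The median size of the log2 difference was 0.09 for HOX genes and 0.10 for all genes, and 0 HOX genes changed 2-fold (0.6 percent of all genes) or 1.5-fold (1.34 percent). These arrays of untreated Ad-GFP cells are also the controls of the first BRG1 comparison. HOXD1 fell from 10.68, 10.75 and 10.72 to 10.26, 10.28 and 10.18, with no overlap (-0.48, SE 0.06, 1.39-fold lower, limma adjusted p = 0.00023), a call kept in every setting run. HOXD13 went from 7.98, 8.04 and 8.05 to 8.21, 8.38 and 8.38 (0.30, SE 0.07, limma adjusted p = 0.0231), again with the groups apart. Its call was lost without any 1 untreated Ad-GFP array or without IFNγ-treated Ad-GFP replicate 2 or 3 (0.27 to 0.31, adjusted p 0.0603 to 0.0987).

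HOXA2, the only HOXA gene here and a gene of the hindbrain and branchial arches, went from 6.89, 6.73 and 6.85 to 6.48, 6.56 and 6.59 (-0.28, SE 0.07, limma adjusted p = 0.0408). The groups did not overlap, but 7 of the 12 arrays could each end the call when left out (adjusted p 0.0536 to 0.143): every IFNγ-treated Ad-GFP array, untreated Ad-GFP replicates 1 and 3 and untreated Ad-BRG1 replicates 1 and 2. The other HOXA2 probe did not show the fall, with a difference of 0.02 (SE 0.14, limma adjusted p = 0.966 over all probes) where the first had -0.28, and the mean of both had -0.13 (adjusted p = 0.442). The call was also lost with average normalization (-0.14, adjusted p = 0.175), with quantiles and no background correction (-0.12, 0.144), and in 5 further settings with adjusted p of 0.0515 to 0.0625. For the 18 uncalled genes the log2 difference lay between -0.26 (HOXD3) and 0.30 (HOXB6). HOXB7, a gene raised in several tumour types, was 0.25 lower in log2 terms without a call (95% interval -0.40 to -0.10, adjusted p = 0.0711). The groups did not overlap for 5 HOX genes (23.8%), or 4 of 20 (20%) without HOXB13, against 28.1 percent of all genes, a share that keeps genes passing the filter through 1 group only.

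In cells with BRG1, limma called 8 of 21 HOX genes after IFNγ (38.1%), against 32.7 percent of all genes. HOXB1, HOXB4 and HOXC6 rose (13.1 percent of all genes), and HOXA2, HOXB7, HOXC9, HOXC13 and HOXD1 fell (19.6 percent). HOXC13 was the 1 gene past 1.5-fold (4.76% of the HOX genes, 6.43 percent of all) and 0 reached 2-fold (1.91 percent of all). The median size of the log2 difference was 0.20 for HOX genes and 0.18 for all. HOXC13 went from 8.78, 8.66 and 8.53 to 8.24, 7.98 and 7.92, without overlap (-0.61, SE 0.10, 1.52-fold lower, limma adjusted p = 0.000987). HOXD1 went from 10.22, 10.22 and 10.19 to 9.61, 9.69 and 9.67 (-0.56, SE 0.06, limma adjusted p = 2.15e-05), and HOXC9 from 8.84, 8.88 and 8.98 to 8.57, 8.58 and 8.53 (-0.34, SE 0.07, limma adjusted p = 0.00435). These 3 falls were called in every setting run and without each array.

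HOXB4, known for expanding blood stem cells, rose by 0.45 (SE 0.09, limma adjusted p = 0.00453), from 8.0, 7.90 and 7.91 to 8.48, 8.23 and 8.43. HOXB1 rose by 0.32 (SE 0.09, limma adjusted p = 0.0192), from 6.48, 6.62 and 6.57 to 6.69, 6.92 and 7.02, but not without untreated Ad-BRG1 replicate 1 or IFNγ-treated Ad-BRG1 replicate 2 or 3 (adjusted p 0.0619 to 0.0807). HOXC6 rose by 0.26 (SE 0.05, limma adjusted p = 0.00398), from 12.82, 12.86 and 12.83 to 13.08, 13.10 and 13.10. None of the 3 overlapped between groups, yet all 3 rises were lost when each array was scaled to a common median, HOXC6 then differing by 0.03. HOXA2 fell by 0.26 (SE 0.07, limma adjusted p = 0.0158), from 6.82, 6.80 and 6.75 to 6.52, 6.44 and 6.63, a call lost without untreated Ad-BRG1 replicate 1 or IFNγ-treated Ad-BRG1 replicate 2 (adjusted p 0.0542 to 0.0656). It was also lost with average normalization (-0.06, adjusted p = 0.49), with quantiles and no background correction (-0.11, 0.0749), with the mean of both probes (-0.24, 0.053) and with the compared groups alone (0.0508). HOXB7 fell by 0.24 (SE 0.07, limma adjusted p = 0.0218), from 10.97, 11.02 and 10.95 to 10.87, 10.64 and 10.72. The HOXB7 call was lost without replicate 1 or 2 of untreated or replicate 2 or 3 of IFNγ-treated Ad-BRG1 cells (adjusted p 0.0548 to 0.09).

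Under that median scaling the median of all genes was -0.21 for IFNγ in Ad-BRG1 cells, 13% of all calls were higher against 40.1% here and 52.9% with the authors' average normalization, and the HOX calls were 0 up and 9 down. Relative to the shift, HOXB4 was 0.46, HOXB1 0.39 and HOXC6 0.23 higher, and HOXC13 (-0.58), HOXD1 (-0.54) and HOXC9 (-0.31) were lower. Ad-BRG1 cells with IFNγ also had the lowest raw intensities, whose part in these values was not tested. The 13 uncalled genes lay between -0.35 (HOXB8, 95% interval -0.64 to -0.06, adjusted p = 0.062) and 0.32 (HOXB6). The groups did not overlap for 9 HOX genes (42.9%), against 42.9 percent of all genes. The IFNγ responses with and without BRG1 take their group means from separate arrays, but their tests share the spread pooled over all groups. Between these responses 2 calls were common, HOXD1 and the less stable HOXA2, both falls. These were 66.7% of the 3 and 25% of the 8, against 65.6% and 8.17% over all genes.

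HOXD1 was called in all 4 comparisons, each time lower, and no other HOX gene was. The comparisons share arrays, so they are not independent. HOXD1 averaged 10.72 ± 0.04 without virus-borne BRG1 or IFNγ (SD, n = 3), 10.24 ± 0.06 in Ad-GFP cells with IFNγ, 10.21 ± 0.02 in untreated Ad-BRG1 cells and 9.66 ± 0.04 in Ad-BRG1 cells with IFNγ. From the highest to the lowest group this is 1.06 on the log2 scale, or 2.09-fold, and no other HOX gene spanned more than 0.77 (HOXD8). The means of Ad-GFP cells with IFNγ and untreated Ad-BRG1 cells lay within their spread of each other. The IFNγ response of HOXD1 differed little between the cells, -0.08 (SE 0.08, 95% interval -0.25 to 0.10, limma adjusted p = 0.553).

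Whether the IFNγ response depends on BRG1 was tested as the interaction, with the response of Ad-GFP cells taken from that of Ad-BRG1 cells. Limma called 2 of 21 HOX genes (9.52%), against 8.15 percent of all genes, both in the HOXC cluster and both lower (3.83 percent of all genes). None were higher (4.32 percent), and 0 reached 1.5-fold (4.21 percent) or 2-fold (1.43 percent). The HOXC9 response was 0.08 (SE 0.07, adjusted p = 0.56) in Ad-GFP and -0.34 in Ad-BRG1 cells, an interaction of -0.42 (SE 0.10, limma adjusted p = 0.0274). For HOXC13 the responses were -0.07 (SE 0.10, adjusted p = 0.729) and -0.61, an interaction of -0.53 (SE 0.14, limma adjusted p = 0.0406). HOXC13 was thus higher with BRG1 in untreated cells (0.37) and not called with IFNγ (-0.16). Neither interaction call was robust to single arrays. HOXC9 lost it without 7 arrays, each alone (adjusted p 0.0555 to 0.0681), namely 2 and 3 of untreated Ad-GFP, 2 of untreated Ad-BRG1, 1 and 2 of IFNγ-treated Ad-GFP and 2 and 3 of Ad-BRG1 cells with IFNγ. HOXC13 lost it without any of 9 arrays (adjusted p 0.0632 to 0.0942), the 3 that kept it being replicate 2 of untreated Ad-GFP, 3 of untreated Ad-BRG1 and 1 of IFNγ-treated Ad-BRG1 cells. The next closest to the threshold were HOXD13 (-0.30, adjusted p = 0.0669) and HOXB1 (0.38, adjusted p = 0.0822). Under median scaling 17.4% of all interaction calls were higher, against 53% here and 63% with average normalization, the median of all genes moved to -0.17, and 3 HOX genes were called, all lower.

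HOXB6, HOXB8, HOXC8, HOXC10 and HOXC11 were called in none of the 5 comparisons. HOXC8, which shapes the thoracic skeleton and motor neurons in the mouse, averaged 12.01 ± 0.08 and 12.08 ± 0.15 in Ad-GFP and Ad-BRG1 cells without IFNγ (SD, n = 3) and 11.91 ± 0.02 and 12.03 ± 0.06 with IFNγ, a span of 0.16. HOXC10 means spanned 0.19 (7.04 to 7.23) and HOXC11 means 0.22 (6.49 to 6.71). HOXB8 means spanned 0.37 (7.70 to 8.07). HOXB6 had the widest interval, its BRG1 difference of 0.30 without IFNγ running from -0.19 to 0.79, so a change of more than 1.5-fold could not be told from none on these arrays.

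By place along the clusters, genes numbered 1 to 4, 5 to 8 and 9 to 13 were tested 7 each. With BRG1 in untreated cells 1 up and 1 down were called among numbers 1 to 4. Among 5 to 8 it was 1 up and 2 down, and among 9 to 13 it was 2 up and 2 down. HOXB13, whose fall the detection filter favoured, is 1 of the 2 falls among 9 to 13. The median log2 differences were -0.06, 0.06 and 0.09, the last with HOXB13 included. With IFNγ the counts were 3 up and 2 down, 1 up and 2 down, and 1 up and 2 down. The medians were then 0.15, 0.03 and -0.16. Their order was the reverse of that without IFNγ, which was not tested. Without IFNγ the calls of HOXB13, HOXC6, HOXC9 and HOXD12 were each lost in some setting or without a single array. So were those of HOXB1, HOXC6, HOXD3 and HOXD13 with IFNγ. Of all genes, 57.1 percent were called without and 61.1 percent with IFNγ. Within HOXD, HOXD1 and HOXD8 were lower and HOXD12 higher.

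Several HOX genes have more than 1 probe. Both HOXC6 probes above background were higher in Ad-BRG1 cells with IFNγ, by 0.41 and 0.49 (SE 0.13, limma adjusted p = 0.00577 over all probes). The second was much dimmer, with raw intensities of 159 to 204 against 6240 to 8260. It was higher but not called for BRG1 without IFNγ (0.23, limma adjusted p = 0.159 over all probes) and for IFNγ in Ad-BRG1 cells (0.21, 0.242). A further 2 HOXC6 probes and 1 HOXC4 probe were not above background on all arrays of any group. The HOXA2 probes differed with BRG1 in untreated cells by -0.04 and 0.29, neither called.

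The genes that surround the HOX clusters are given beside the share of all genes called with BRG1 in untreated cells, 26.7 percent higher and 30.3 percent lower. Without IFNγ, 0 rose and 3 fell of 7 tested neighbours of HOXA, 3 rose and 3 fell of 8 of HOXB, 1 rose and 4 fell of 6 of HOXC, and 2 rose and 1 fell of 6 of HOXD. The largest in each list were SNX10, a sorting nexin beside HOXA (1.86-fold lower), SKAP1, an adaptor of T cell signalling beside HOXB (at least 1.43-fold higher), HNRNPA1, an RNA-binding protein beside HOXC (1.35-fold lower), and CHN1, a RAC GTPase-activating protein beside HOXD (1.33-fold higher). Of cluster noncoding RNAs 2 were tested, and HOXC-AS1 was lower (-0.46, SE 0.13, limma adjusted p = 0.00795), a call lost with average normalization.

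The counts of HOX regulators and partners are read against the same shares, and with IFNγ against 28.3 percent higher and 32.8 percent lower of all genes. The TALE list held the MEIS and PBX cofactors of HOX proteins and the related TGIF1 and TGIF2. Of its 8 tested genes 5 rose and 1 fell with BRG1 in untreated cells, and 3 rose and 2 fell with IFNγ. Their median log2 difference was 0.23 and 0.15, against -0.03 over all genes in both. MEIS2 was 1.64-fold higher (0.72, SE 0.13), and of the related repressors TGIF2 was lower by 0.72 and TGIF1 higher (0.64). Of 15 Trithorax and MLL activators 4 rose and 4 fell without and 3 rose and 4 fell with IFNγ. WDR5, a core subunit of the MLL methyltransferases, was 1.84-fold lower (-0.88, SE 0.10), PSIP1, which tethers them to chromatin, 1.79-fold lower, and the H3K27 demethylase KDM6A 1.46-fold higher. Of 11 PRC2 subunits 2 rose and 2 fell without IFNγ, AEBP2 being 1.72-fold lower and PHF1 1.58-fold higher, and 3 rose and 1 fell with IFNγ. The other fall without IFNγ was SUZ12, the subunit that the study depletes (-0.59, SE 0.19, limma adjusted p = 0.0174). Its call was lost without untreated Ad-GFP replicate 3 or untreated Ad-BRG1 replicate 1 or 2, and SUZ12 was not called with IFNγ (0.20). Of 18 PRC1 subunits 3 rose and 7 fell without IFNγ, and 5 rose and 9 fell with it. PHC3, a Polyhomeotic scaffold protein, was 1.76-fold higher and RING1, a ubiquitin ligase of the complex, 1.69-fold lower.

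Retinoic acid is the classical inducer of HOX genes, and of 13 tested genes of its pathway 6 rose and 3 fell with BRG1 in untreated cells and 5 rose and 3 fell with IFNγ, where 57.1 percent of all genes were called without and 61.1 percent with IFNγ. DHRS3, a retinal reductase, was at least 6.65-fold higher without IFNγ, CRABP2, the carrier of retinoic acid to its receptors, 2.06-fold and the retinal reductase RDH11 1.73-fold. Of other homeobox and developmental factors known as Polycomb targets, 41 of 111 on the array were tested and 12 rose and 9 fell with BRG1 without IFNγ (10 and 14 with IFNγ). IRX3 was 6.99-fold higher (2.80, SE 0.13), DLX5 at least 2.29-fold higher and EMX1 2.81-fold lower. Of the ParaHox and HOX-like genes 5 of 15 were tested, and 2 rose and 1 fell without IFNγ (1 and 3 with IFNγ). MNX1, a motor neuron factor, was 1.46-fold lower, a call lost with average normalization. HHEX, a factor of blood and liver development, was 1.36-fold higher. The other rise, of MEOX2 (0.29), was lost in 6 settings, and MEOX2 was called lower with IFNγ (-0.56). These lists were tested gene by gene and describe the setting of the HOX values, and no list was compared with another.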

How the data were processed

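The report rests on the raw values that the authors deposited from BeadStudio: probe intensity on a linear scale, without background subtraction or normalization, beside a detection p-value per probe and array from the authors' software. The authors also deposited average-normalized intensity, equal to the raw values times 1 constant per array (0.924 to 1.14, mean 615.02), which was used as an alternative. Here neqc of limma 3.58.1 (R 4.3.3) corrected background (negative controls being inferred through the detection p-values), normalized by quantiles, added an offset of 16 and took log2. The annotation gave 1 symbol to 27578 probes, several to 13 and none to 21212. Probes with a detection p under 0.05 on all 3 arrays of a group were kept, and the brightest on average stood for its gene (10333 genes). A linear model with 4 group means was fitted over all 12 arrays (lmFit, eBayes, 8 residual and 4.24 prior degrees of freedom, two-sided). P-values were adjusted by Benjamini-Hochberg over all genes, and calls were made under an adjusted p of 0.05. SE is that of the log2 difference. "At least" marks a fold against a group with no detected array, set to the lowest normalized value of detected probes (5.35 to 5.44). The fit was tested on simulated data. Alternatives changed the normalization, background correction, offset, detection filter, probe choice, arrays in the fit and replicate block, or left out 1 array. The number of arrays limits the precision.

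The HOX genes, the other gene lists and the motifs were chosen with earlier results of these data known. A further motif search is not reported here. All HOX genes tested are named, with array values for those called, and at most 3 genes of each other list, those with the largest BRG1 difference without IFNγ. Figures used Python 3.11.15 and matplotlib 3.10.9.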

Additional observations from a re-analysis of the deposited data

Results flagged for a closer look

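The IFNγ response of 2 HOX genes differed between Ad-BRG1 and Ad-GFP cells by the interaction test of limma, by -0.53 for HOXC13 (adjusted p = 0.0406) and -0.42 for HOXC9 (adjusted p = 0.0274) on the log2 scale. Among all genes 8.15 percent had such a difference. On the arrays, HOXC13 was highest in untreated Ad-BRG1 cells (8.53 to 8.78) and HOXC9 lowest in Ad-BRG1 cells with IFNγ (8.53 to 8.58). The HOXC9 ranges of these cells and of each other group did not overlap. Both calls were lost without single arrays, as given above, with differences of -0.55 to -0.45 for HOXC13 and -0.43 to -0.36 for HOXC9 when they were lost.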

How the results depend on the processing

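Of 33 called pairs of a HOX gene and a comparison, 18 were called under every processing alternative, 21 without each array in turn and 16 under both, and 0 turned direction. Of 72 uncalled pairs, 15 were called under some alternative. A fit of the compared groups alone ended the calls of HOXC9 with BRG1 (adjusted p = 0.0921) and HOXD3 with BRG1 and IFNγ (0.0564), of HOXA2 (0.0581) and HOXD13 (0.0516) with IFNγ in Ad-GFP cells, and of HOXA2 (0.0508), HOXB1 (0.0537) and HOXB7 (0.0728) with IFNγ in Ad-BRG1 cells. The number of HOX genes called with IFNγ in Ad-GFP cells, 3, became 1 with median scaling and 1 when the fit held just the compared groups. With IFNγ in Ad-BRG1 cells it went from 8 to 5 with the compared groups alone, and for the interaction from 2 to 1 without the detection filter. Without 1 array it was 1 to 4 with IFNγ in Ad-GFP cells, 5 to 9 with IFNγ in Ad-BRG1 cells, 6 to 11 with BRG1 alone, 9 to 12 with BRG1 and IFNγ, and 0 to 3 for the interaction. Among all genes, interaction calls (842) ran from 351 without untreated Ad-GFP replicate 3 to 2095 with median scaling, calls with IFNγ in Ad-BRG1 cells (3379) from 2089 without untreated Ad-BRG1 replicate 1 to 5131 with median scaling, and calls with IFNγ in Ad-GFP cells (421) from 268 without untreated Ad-GFP replicate 2 to 540 with quantile normalization and no background correction. The cause of these moves was not tested.

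Replicate numbers are shared by the groups, and the deviations of same-numbered arrays correlated at -0.19 to 0.44 (18 pairs, median 0.11, 9 over 0.1), against a median of -0.06 for different numbers, with 7 of 12 arrays closest to their own number. Since not every pair exceeded 0.1 and no label ties the numbers, they were not taken as pairs. With the replicate number as a block, 2, 9, 8, 11 and 3 HOX genes were called with IFNγ in Ad-GFP cells, IFNγ in Ad-BRG1 cells, BRG1 without IFNγ, BRG1 with IFNγ and for the interaction. The block ended the calls of HOXC9 with BRG1 (adjusted p = 0.0535) and HOXA2 with IFNγ in Ad-GFP cells (0.0515), and added HOXB8 with IFNγ in Ad-BRG1 cells (0.0432) and HOXB1 for the interaction (0.0281). With average normalization and no background correction some differences were smaller, such as -0.09 for HOXD13 with BRG1 and IFNγ (adjusted p = 0.154). Signal near background limits HOXB6, HOXB13 and HOXD3. With a detection p under 0.01, 14 to 16 genes were above background per group, and with 2 of 3 arrays required 20 to 22.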
